A study of Homo sapiens with 18 samples.

Results

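Smooth muscle actins and their partner proteins are a small part of the transcriptome of SH-SY5Y, an established human neuroblastoma line, and the 9 genes described here are ACTG2, ACTA2, TAGLN, CNN1, MYL9, TPM1, TPM2, S100A10 and ANXA2. They were taken by symbol from a table of 26372 genes. The genes were chosen from measured values of these same libraries, with earlier results known; the record does not name the values. The difference between day 18 and day 0 is therefore treated as having chosen them and is given as a description with no test, while the constructs are compared by test. Whether differences between constructs also played a part in the choice is not recorded. SH-SY5Y cells from ATCC, infected a day after plating with lentivirus made from the FUGW plasmid, carried ZNHIT3-WT, ZNHIT3-C14R or a ZNHIT3 deletion. All 18 libraries therefore hold a ZNHIT3 transgene beside the cells' own gene, and no library came from cells without virus. Each construct was sampled at day 0 and after 18 days in serum-free Neurobasal/B27 medium with all-trans retinoic acid (10 µM), BDNF (50 ng/ml), dibutyryl cyclic AMP (2 mM) and KCl (20 mM), and each of the 6 groups has 3 libraries. The deletion is named ∆251-254 in the design text, while the treatment labels read 251-254, 251-255 and 251-256 in replicates 1, 2 and 3. Nothing in the labels says that replicates came from separate cultures, so p-values measure only the spread between these samples, which may be technical.

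In smooth muscle, actin filaments of the ACTA2 and ACTG2 isoforms slide on myosin whose activity is set by phosphorylation of the regulatory light chain, MYL9. Tropomyosins (TPM1, TPM2) lie along the actin filament, and calponin (CNN1) and transgelin (TAGLN) bind it. Many of these genes are targets of serum response factor (SRF), which binds a DNA element called the CArG box and is switched on by actin polymerization, serum and TGF-beta. ANXA2, a calcium-dependent membrane-binding protein, forms a complex with S100A10, and both link membranes to cortical actin. Cultured neuroblastoma cells can hold an adrenergic, neuroblast-like state or a mesenchymal-type state rich in vimentin, fibronectin and such contractile genes.

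The promoters of the actin pair are shown because they hold every match to the SRF element found among these genes. RefSeq promoter sequences (GRCh38.p14) were at hand for 7 of the 9 genes, with 9 start sites in all; TAGLN and MYL9 had no entry. The 250 bases before each start were searched on both strands for the CArG box and for a CArG-like form in which 1 of the 6 inner positions is G or C. The matches are in capitals, and the start site follows the last base.
ACTG2, chr2:73892758-73893007, plus strand: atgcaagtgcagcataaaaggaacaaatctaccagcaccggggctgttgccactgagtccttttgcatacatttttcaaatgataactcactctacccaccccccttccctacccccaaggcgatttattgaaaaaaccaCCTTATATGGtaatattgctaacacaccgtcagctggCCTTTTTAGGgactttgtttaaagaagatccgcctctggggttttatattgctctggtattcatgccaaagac
ACTA2, chr10:88952774-88953023, minus strand, second listed start: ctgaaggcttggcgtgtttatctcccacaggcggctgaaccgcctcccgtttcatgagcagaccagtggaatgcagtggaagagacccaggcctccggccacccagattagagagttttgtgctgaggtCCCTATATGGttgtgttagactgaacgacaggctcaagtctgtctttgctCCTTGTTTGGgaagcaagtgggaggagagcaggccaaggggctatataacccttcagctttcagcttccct
ACTG2 held 2 CArG boxes, which begin 110 and 73 bases before the start. At least 1 CArG box was present in 1.16% of 35116 RefSeq promoters of this length, and 2 or more in 0.0313% (11 promoters). ACTA2 held no CArG box but 2 CArG-like matches, 121 and 71 bases before its second start; a CArG-like match was present in 5.96% of promoters. CNN1, TPM1, TPM2, S100A10 and ANXA2 had neither form in these windows, nor did the first listed start of ACTA2. These are matches of letters, and no binding was measured.

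At day 0 most of these genes were abundant. In the WT libraries the order of levels was led by ANXA2, with 232 ± 7.08 FPKM (SD, n = 3), and TPM1, with 208 ± 15.9 FPKM. FPKM counts fragments relative to transcript length and to the mapped fragments of the library, so levels of different genes are set side by side as a rough order. For ANXA2, 35.3% of its 50-base windows are shared with a pseudogene, and how such reads were assigned is not given. TAGLN followed with 161 ± 10.1 FPKM, ACTA2 with 61.6 ± 0.853, S100A10 with 36.4 ± 1.07, TPM2 with 35.6 ± 3.32, ACTG2 with 23.0 ± 1.03 and CNN1 with 1.90 ± 0.587 FPKM. The libraries of ANXA2 and TPM1 overlapped, as did those of S100A10 and TPM2. MYL9, the smooth muscle regulatory light chain, was listed at 0 in 17 of 18 libraries and at 0.106 FPKM in deletion replicate 2 of day 0. It did not pass the filter on low values (a mean of at least 1 FPKM over all libraries), so 8 of the 9 genes entered the tests among 13785 genes.

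**Figure D1:**
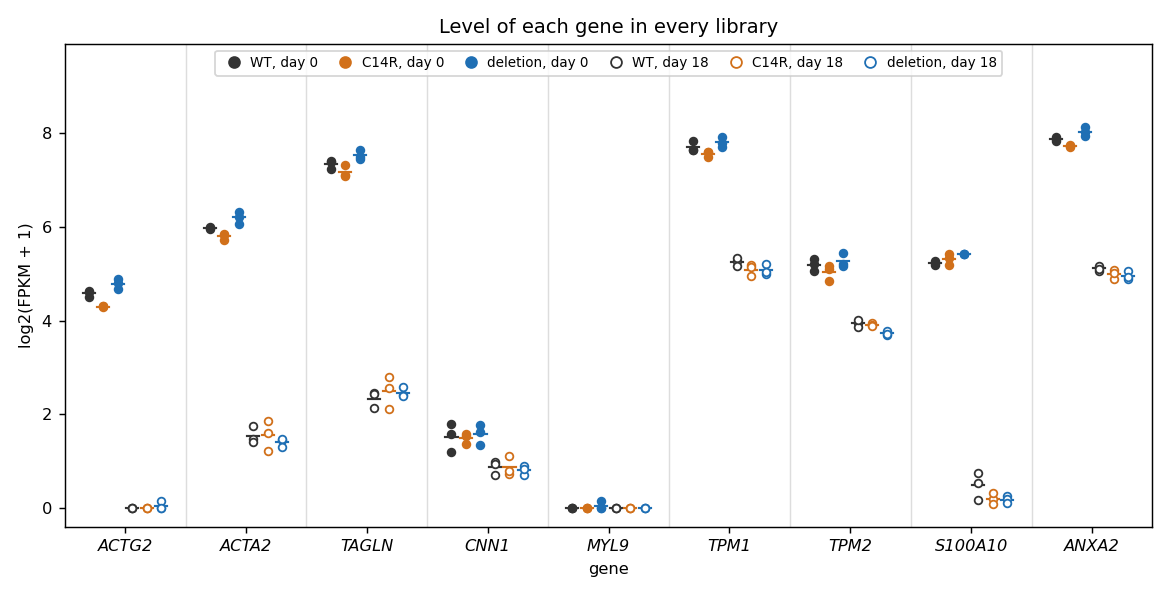
Level of each of the 9 genes on the vertical axis as log2(FPKM + 1), with one point per library and a short line at the group mean; filled points are day 0, open points day 18, and colour marks the construct. ACTG2 and S100A10 lie near 0 at day 18 while TPM1, TPM2 and ANXA2 keep measurable levels, and MYL9 is near 0 on both days.

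At day 18 ACTG2 and S100A10 were near 0 and ACTA2 and TAGLN were down to a few FPKM, while the tropomyosins and ANXA2 were lower but still above 10 FPKM. The 8 genes that passed the filter were lower at day 18 than at day 0 in each construct, with no overlap of libraries. Among all genes tested, 34.0% were lower at day 18 in WT at a limma adjusted p under 0.05, 35.0% in C14R and 34.4% in the deletion, and libraries lay apart in the lower direction for 36.0%, 34.5% and 36.8%. Genes high on one day only pass the filter through that day, so nothing is read from this count. In bulk RNA, fewer cells of a type and less RNA per cell cannot be told apart.

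ACTG2, the enteric smooth muscle actin, was listed at 0 in 8 of the 9 day 18 libraries and at 0.118 FPKM in deletion replicate 2. At day 0 it lay between 18.4 and 28.5 FPKM in all 9 libraries, so the days did not overlap. ACTA2, the vascular smooth muscle actin, was at 62.5, 60.8 and 61.4 FPKM in the WT libraries of day 0 and at 1.76, 1.65 and 2.37 FPKM at day 18. Its mean was 32.0-fold higher at day 0 in WT, 27.4-fold in C14R and 43.8-fold in the deletion. TAGLN (transgelin, SM22), an actin-binding protein of early smooth muscle, was at 168, 166 and 149.7 FPKM at day 0 and at 4.46, 4.38 and 3.36 FPKM at day 18 in WT. Its ratio of day 0 to day 18 was 39.7 in WT, 30.3 in C14R and 40.5 in the deletion. On the log2(FPKM + 1) scale, which understates the difference of genes with low values, the TAGLN difference in WT was -5.01 (SE 0.13), the sixth deepest among the genes tested. CNN1, the smooth muscle calponin, was low on both days, between 1.28 and 2.45 FPKM in the 9 libraries of day 0 and between 0.619 and 1.17 FPKM at day 18. Its log2 difference was -0.64 (SE 0.15) in WT, the smallest among the 8 genes.

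The tropomyosins were lower by less. TPM1 was at 226, 199.6 and 198 FPKM in WT at day 0 and at 37.8, 39.1 and 35.0 FPKM at day 18. That is a 5.58-fold higher mean at day 0, against 5.68-fold in C14R and 6.76-fold in the deletion. TPM2 was at 38.6, 36.2 and 32.1 FPKM at day 0 and at 14.5, 13.6 and 15.2 FPKM at day 18 in WT, a 2.47-fold higher mean at day 0. In C14R the TPM2 ratio was 2.27 and in the deletion 3.06.

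S100A10 and its partner ANXA2 moved in the same direction by very unequal amounts. S100A10 was at 36.7, 37.3 and 35.2 FPKM in WT at day 0 and at 0.690, 0.441 and 0.126 FPKM at day 18. All 9 day 18 libraries were below 1 FPKM, with the 3 highest values of C14R and the deletion at 0.253, 0.189 and 0.141 FPKM. ANXA2 was at 232, 239.7 and 226 FPKM in WT at day 0 and at 35.1, 32.3 and 33.5 FPKM at day 18, a 6.91-fold higher mean at day 0. The ratio of ANXA2 to S100A10 lay between 5.11 and 6.69 in the 9 libraries of day 0 and between 50.8 and 483 at day 18; the later range is wide because S100A10 is close to 0. At day 18 the order of levels in WT was TPM1 (37.3 ± 2.10 FPKM, n = 3), ANXA2 (33.6 ± 1.40), TPM2 (14.4 ± 0.799), TAGLN (4.07 ± 0.611), ACTA2 (1.93 ± 0.392), CNN1 (0.842 ± 0.196) and S100A10 (0.419 ± 0.282). TPM1 and ANXA2 overlapped, as did CNN1 and S100A10.

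The makeup of the gene families shows where these isoforms stood among their relatives. The relatives too were chosen with earlier results of these data known, so their adjusted p-values between the days are descriptive. ACTA2 and ACTG2 together gave 2.85% ± 0.0882 (SD, n = 3) of the summed FPKM of 6 actin genes in WT at day 0 and 0.126% ± 0.0306 at day 18. The cytoplasmic actins ACTB and ACTG1 held 70.1% and 27.1% at day 0, and 68.0% and 31.8% at day 18, while the striated muscle actins ACTA1 and ACTC1 were at or below 0.289 FPKM in every library. ACTB itself fell from 2079 to 1042 FPKM in WT (log2 difference -0.996, limma adjusted p = 3.3e-10) and ACTG1 from 804 to 488 FPKM (-0.72, adjusted p = 1.2e-07), against -4.43 for ACTA2. TPM1 held 34.6% ± 1.21 of the tropomyosin sum in WT at day 0 and 13.4% ± 0.702 at day 18. TPM3 held 23.0% and then 51.8%, although its own level of 138 FPKM at day 0 and 144 FPKM at day 18 did not pass the test (limma adjusted p = 0.17); it passed as higher with small RNA genes left out (log2 difference 0.45, limma adjusted p = 7.1e-07) and with quantile normalization (0.18, adjusted p = 0.0019). TAGLN held 48.4% ± 1.07 of the transgelin sum at day 0 and 2.56% ± 0.234 at day 18, when TAGLN2 held 80.8%. CNN1 held 1.06% ± 0.315 of the calponin sum at day 0, and CNN3 held 84.1%. With MYL9 near 0, the light chains read were MYL6, with 496 FPKM at day 0 in WT, MYL12B with 173 and MYL12A with 127 FPKM.

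**Figure D2:**
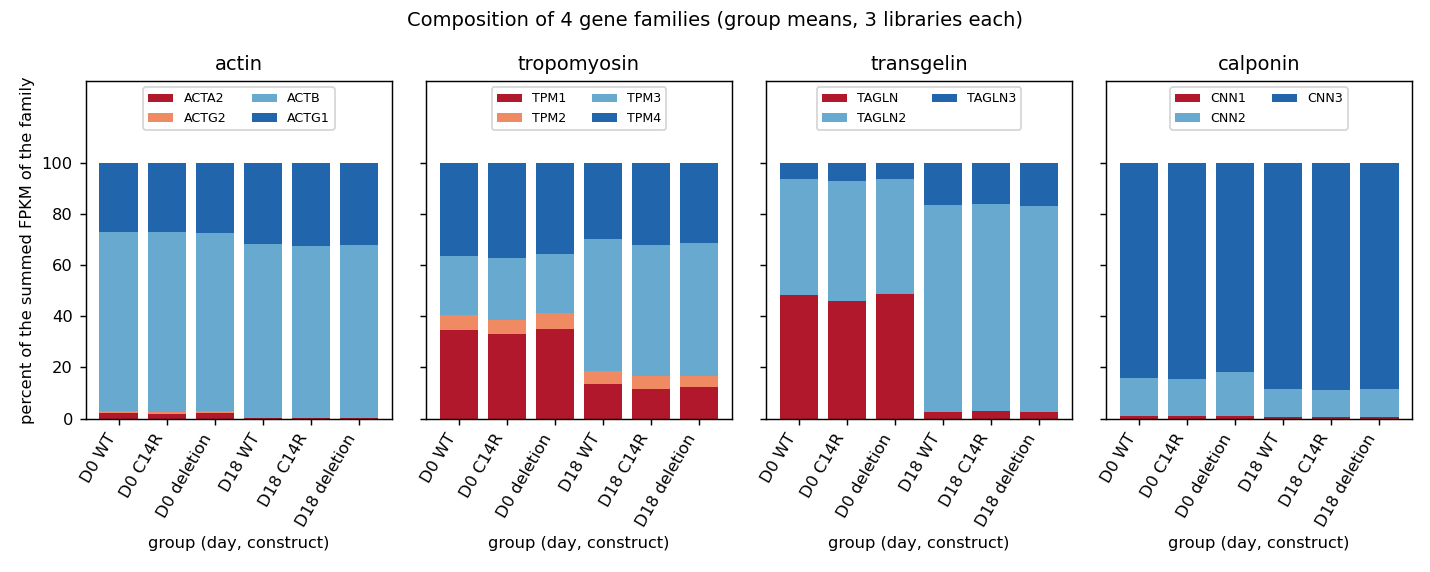
Share of each gene, in percent of the summed FPKM of its family, as stacked bars of group means over 3 libraries for the actin, tropomyosin, transgelin and calponin families; red and orange are ACTA2, ACTG2, TPM1, TPM2, TAGLN and CNN1, blue their relatives, and ACTA1 and ACTC1 are too low to draw. TAGLN goes from 48.4% to 2.56% and TPM1 from 34.6% to 13.4% in WT, while TAGLN goes from 46.0% to 2.86% in C14R and from 48.9% to 2.74% in the deletion.

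At day 0 the group means of 7 of the 8 genes lay in 1 order, with C14R lowest, WT between and the deletion highest; S100A10 was the exception, with WT lowest. The differences were small beside those between the days, and after adjustment over all genes only ACTG2 passed, in C14R against the deletion. ACTG2 was at 18.8, 18.7 and 18.4 FPKM in the C14R libraries, at 21.8, 23.5 and 23.7 FPKM in WT and at 28.5, 24.6 and 26.8 FPKM in the deletion. The 3 groups did not overlap. C14R was at 70.0% of the deletion, a log2 difference of -0.49 (SE 0.07, limma adjusted p = 0.0060), where 0.0580% of the genes tested were called and 0.0290% were called lower. The call rests on few libraries: the adjusted p was 0.051 without C14R replicate 1, 0.073 without C14R replicate 3, 0.076 without deletion replicate 1 and 0.056 without deletion replicate 3. With a pseudocount of 0.1 it was 0.47, and over 28 alternative settings it ranged from 0.0017 to 0.47, with log2 differences between -0.54 and -0.44. The spread in this test comes from all libraries, and at day 18 ACTG2 was listed at 0 except for 0.118 FPKM in deletion replicate 2. The part of these low values in the 0.47 was not tested. In a fit of the compared libraries alone the limma adjusted p was 0.042.

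ACTA2 was at 56.9, 55.6 and 51.3 FPKM in C14R and at 78.3, 73.5 and 66.1 FPKM in the deletion, with the WT libraries between them and no overlap. Its log2 difference between C14R and the deletion was -0.40 (SE 0.12), which did not pass (limma adjusted p = 0.29). ANXA2, at 209.6, 214 and 207 FPKM in C14R and at 278, 258 and 243 FPKM in the deletion, also kept the groups apart, with a log2 difference of -0.30 (SE 0.06, limma adjusted p = 0.097). ANXA2 did pass with limma array weights (adjusted p = 0.018) and without C14R replicate 1 of day 18 (0.036). TAGLN was at 136, 158 and 135 FPKM in C14R, 168, 166 and 149.7 FPKM in WT and 198, 173 and 179 FPKM in the deletion, so that C14R overlapped WT but not the deletion. TPM1 was at 193, 191 and 179 FPKM in C14R and at 239, 219 and 208 FPKM in the deletion. TPM2 was at 27.5, 34.8 and 33.4 FPKM in C14R and at 42.4, 35.1 and 35.8 FPKM in the deletion, so all C14R libraries were lower by a narrow margin. S100A10 overlapped between these groups, with 35.4, 41.8 and 39.3 FPKM in C14R and 41.6, 41.9 and 41.5 FPKM in the deletion, and so did CNN1.

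In all, the libraries lay apart for 6 of the 8 genes with C14R below the deletion, against 10.7% of all genes tested, and an unadjusted limma p under 0.05 in this direction was reached by 6 against 5.15%. The 6 genes vary over the same libraries and are not independent of each other. Among 95 tested genes of the related lists described further on, VIM (vimentin, an intermediate filament protein) was the only one called in C14R against the deletion, at 540 and 627 FPKM (log2 difference -0.22, limma adjusted p = 0.040). VIM was no longer called in 21 of 28 alternative settings, where its adjusted p ranged from 0.0087 to 0.36 over all 28.

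**Figure D3:**
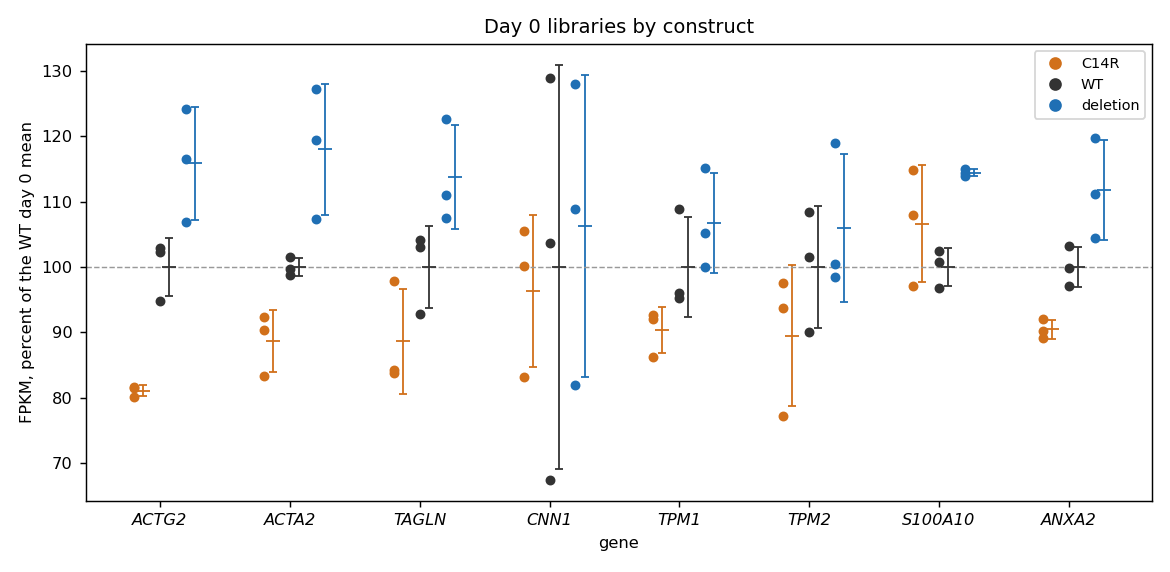
FPKM of the 8 genes in the day 0 libraries, in percent of the WT day 0 mean (dashed line), with one point per library and a bar beside each group for mean ± SD (n = 3). ACTG2, ACTA2 and ANXA2 show 3 separate groups with C14R lowest and the deletion highest, CNN1 overlaps throughout, and the vertical axis does not start at 0.

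Set against WT, each construct gave 0 calls at day 0. In C14R against WT, 0% of all genes tested were called by limma, and 2 of the 8 genes were lower at an unadjusted p under 0.05 against 1.52% of all genes. These 2 were ACTG2 and ANXA2, and TAGLN was not among them. ACTG2 differed by -0.29 (SE 0.07, limma adjusted p = 0.68) and TAGLN by -0.18 (SE 0.13, adjusted p = 1). ACTG2, ACTA2, ANXA2 and TPM1 had no overlap of libraries in the lower direction, as had 5.33% of all genes. By sign alone, 7 of the 8 were lower, or 6 of 8 with small RNA genes left out, against 51.7% of all genes. In the deletion against WT, 0.0290% of all genes were called, and 2 of the 8 genes were higher at an unadjusted p under 0.05 against 3.16% of all genes. These 2 were ACTG2 and ANXA2, and ACTA2 was not among them. The 2 largest differences were 0.23 for ACTA2 (SE 0.12, limma adjusted p = 0.81) and 0.20 for ACTG2 (SE 0.07, adjusted p = 0.76). ACTG2, ACTA2, ANXA2, TAGLN and S100A10 had no overlap in the higher direction, as had 8.68% of all genes, and the 8 were all higher by sign, here and under each of the 3 scalings tried, where 50.4% of all genes were lower. The WT libraries are shared by both comparisons.

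At day 18 the group means of TAGLN, ACTA2, CNN1, TPM1, TPM2, S100A10 and ANXA2 did not follow the order of day 0. Limma called 0 of the 8 in each of the 3 comparisons, where 0.0363% of all genes were called in C14R against WT, 0.0725% in the deletion against WT and 0.0290% in C14R against the deletion. At an unadjusted p under 0.05 the counts were 2 lower (5.77% of all genes), 4 lower (5.67%) and 0 in either direction (11.2%). S100A10 differed from WT by -0.29 in C14R (SE 0.11, limma adjusted p = 0.32) and -0.30 in the deletion (SE 0.11, adjusted p = 0.31), at levels below 1 FPKM and with overlapping libraries. These values were -0.15 and -0.17 without WT replicate 1 of day 18, -0.44 and -0.46 without WT replicate 3, and -0.94 and -0.99 at a pseudocount of 0.1, and none of them passed. TPM1 differed from WT by -0.17 in C14R (SE 0.07, limma adjusted p = 0.41), by -0.098 without C14R replicate 3 of day 18 and by -0.28 with array weights, which did not pass either. TPM2 was at 11.98, 12.8 and 12.2 FPKM in the deletion against 14.5, 13.6 and 15.2 in WT and 14.4, 14.1 and 13.7 in C14R, so the deletion lay below both without overlap. Its log2 difference was -0.21 from WT (SE 0.08, limma adjusted p = 0.37), and C14R exceeded the deletion by 0.18 (SE 0.08, adjusted p = 0.45). Libraries lay apart in these directions for 8.53% and 5.94% of all genes. ACTA2 differed by 0.15 between C14R and the deletion (SE 0.12, limma adjusted p = 0.61), and the value was -0.0042 without C14R replicate 2 of day 18, 0.32 without C14R replicate 3, 0.094 without deletion replicate 3 and -0.047 with array weights.

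Whether the difference between the days depended on the construct was tested by interaction with day. For C14R, limma called 0 of the 8 genes and 0% of all genes, with 1 higher and 1 lower at an unadjusted p under 0.05 (2.99% and 2.74% of all genes). The higher one was ACTG2 (0.29, limma adjusted p = 0.71), listed at 0 in all WT and C14R libraries of day 18. Its interaction is therefore only its day 0 difference of -0.29 with the sign turned. S100A10 had an interaction of -0.37 (SE 0.15, limma adjusted p = 0.84) and TAGLN of 0.33 (SE 0.18, adjusted p = 0.88). The former was -0.24 without WT replicate 1 of day 18 and -1.03 at a pseudocount of 0.1, and the latter 0.17 without C14R replicate 2 of day 18 and 0.52 without C14R replicate 1; none passed. For the deletion, limma called 0 of the 8 and 0.0145% of all genes, with 4 lower at an unadjusted p under 0.05 against 3.86%. These 4 were ANXA2 (-0.31, SE 0.08, limma adjusted p = 0.32), S100A10 (-0.49, SE 0.15, adjusted p = 0.45), TPM1 and TPM2. ACTA2, at -0.36 (SE 0.17, limma adjusted p = 0.68), was not among them. At a pseudocount of 0.1 the interaction of S100A10 was -1.19, which did not pass.

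The genes of the same machinery were examined in 8 lists with 104 genes, of which 95 passed the filter. The lists were chosen with earlier results of these data known. Their counts and adjusted p-values between the days are therefore descriptions and give no independent support. From day 0 to day 18 in WT, 71 of the 95 fell and 18 rose by limma, against 34.0% and 38.2% of all genes tested; the counts were 67 and 18 in C14R (35.0% and 37.9% of all genes) and 71 and 18 in the deletion (34.4% and 38.6%). With small RNA genes left out and the rest rescaled, the median of all genes shifted from 0.03 to 0.37 on the log2 scale in WT, and 55 list genes fell and 29 rose. Of the list genes called, 34.5% were then higher at day 18, and of all genes called 79.2%, against 20.2% and 52.9% on the deposited scale. Changes below are on the deposited scale.

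All 15 genes of focal adhesions and actin cross-linking fell, with a median log2 difference of -1.04 against 0.03 over all genes. CAV1 (caveolin-1) went from 17.6 FPKM to a listed 0, FLNA (filamin A) fell by 2.34 on the log2 scale and PDLIM1 by 2.03. Among other smooth muscle contractile genes, 8 of 13 fell and 3 rose, with a median of -0.38; CALD1 (caldesmon) fell by 2.48, LPP by 2.38 and MYLK, the kinase of the regulatory light chain, by 1.35. Of the actin, tropomyosin and myosin relatives 6 of 9 fell and 1 rose (median -0.72), TPM4 by 1.39, the nonmuscle myosin heavy chain MYH9 by 1.34 and ACTB by 0.996. Of the calponin and transgelin relatives, CNN2 fell by 0.98 and CNN3 by 0.50, TAGLN2 fell by 0.23, and TAGLN3, a neuronal transgelin, rose by 0.28. The smaller of these depended on the scale: with small RNA genes left out, TAGLN2 turned to 0.16 (limma adjusted p = 0.014) and CNN3 was at -0.11 and did not pass (0.11), while ACTB was at -0.61 and ACTG1 at -0.33. With quantile normalization TAGLN2 was at -0.10 and did not pass (limma adjusted p = 0.19). The limma adjusted p of each gene named in these lists was at most 0.0090.

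Of TGF-beta ligands, receptors and SMADs 8 of 11 fell and 3 rose (median -1.35): TGFB2, a ligand, fell from 11.01 to 0.820 FPKM and SMAD7, an inhibitory SMAD, from 7.11 to 1.68 FPKM. Beside S100A10 and ANXA2, 12 of 15 genes of the S100, annexin and AHNAK list fell and 3 rose (median -0.94). S100A11 fell from 63.8 to 1.72 FPKM, ANXA1 from 10.3 FPKM to a listed 0 and S100A4 from 18.3 to 1.32 FPKM. In the mesenchymal-type list 13 of 15 fell and 2 rose (median -1.43): FN1 (fibronectin) from 97.8 to 7.19 FPKM, VIM from 565 to 49.3 and CD44 from 32.4 to 2.91 FPKM. Between constructs at day 18, limma called 0 of the 95 in C14R against WT and 0 in the deletion against WT; with array weights ACTN1 and VIM passed in the former, and MYH10 without C14R replicate 2.

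**Figure D4:**
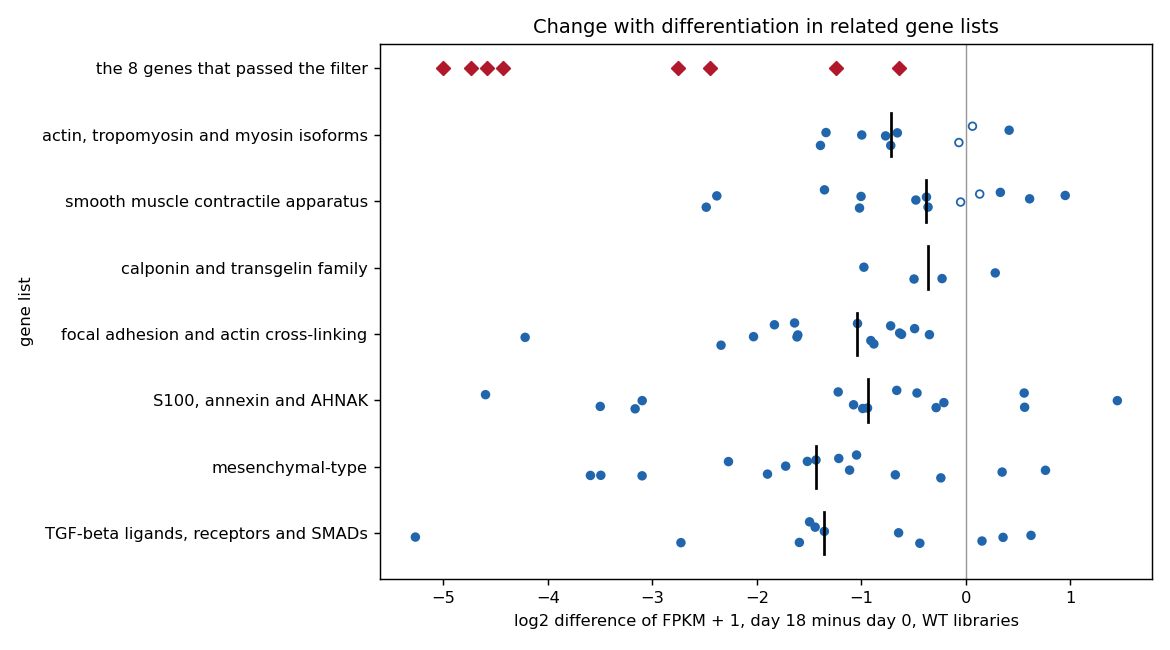
Log2 difference of FPKM + 1 between day 18 and day 0 in the WT libraries, for ACTG2, ACTA2, TAGLN, CNN1, TPM1, TPM2, S100A10 and ANXA2 (red diamonds) and for each tested gene of 7 lists (circles, filled where the limma adjusted p is under 0.05; black lines are list medians). The 15 focal adhesion genes all lie below 0, as do 13 of the 15 mesenchymal-type genes.

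Markers of other cell types moved with the day as follows, and their part in the results was not tested. The marker lists were also chosen with earlier results of these data known, so their counts are descriptions. The summed FPKM of 9 fibroblast markers went from between 306 and 339 at day 0 to between 114 and 135 at day 18, mostly COL3A1 (191 to 28.6 FPKM in WT), with 6 of 7 tested lower in WT and POSTN listed at 0 in all day 0 libraries. The sum of 8 smooth muscle and pericyte markers was 1228 to 1345 FPKM at day 0 and 1327 to 1659 at day 18 and came almost wholly from RGS5 (1273 and 1313 FPKM in WT). In each group 4 of these 8 markers had a mean of at least 1 FPKM. Of the 4 tested, 1 was higher and 1 lower at day 18 in WT and in the deletion, and 2 were higher and 1 lower in C14R. Among the low ones, MYOCD was listed at 0 in all day 0 libraries. MYH11, the smooth muscle myosin heavy chain, was at most 0.315 FPKM in any library, while ACTA2 and TAGLN were abundant at day 0. The sum of 9 neuronal markers went from between 887 and 927 to between 1969 and 2183 FPKM, with 8 of 8 tested higher in WT. Markers of the adrenergic neuroblast state, to which SH-SY5Y is usually assigned, summed to 793 to 831 FPKM at day 0 and 1059 to 1244 at day 18, and 8 of the 9 had a mean of at least 1 FPKM in each group, with TH, the rate-limiting enzyme of catecholamine synthesis, below it. Of the 8 tested, 3 were higher and 3 lower at day 18 in WT, with a median log2 difference of 0.03, as over all genes, and 4 were higher and 3 lower in C14R and in the deletion. Schwann and glial markers summed to between 3.36 and 5.01 FPKM at day 0 and between 8.95 and 10.9 FPKM at day 18, with 2 of 2 tested higher in WT. Endothelial markers summed to at most 0.231 FPKM.

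The genes whose levels followed these most closely over the 18 libraries were sought by Pearson correlation of log2(FPKM + 1), as a description, since the shared difference between the days drives every value. They were SERPINB7 and VCL for ACTG2, FN1 and AXL for ACTA2, AEN and EDNRA for TAGLN, IGFBP3 and FN1 for TPM1, F2RL2 and MSN for S100A10, and FN1 and COL4A1 for ANXA2, with r = 0.998 to 0.999. For TPM2 they were CAPN2 and SYNM (r = 0.99), and for CNN1, which is low, GPER1 and SPR (r = 0.94). After each group's mean was removed, 23 of the 28 pairs among the 8 genes had a positive r, with a median of 0.24 and a range from -0.29 to 0.69. The points of each pair come from the same libraries and so share depth and scaling.

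Positions in GENCODE release 29 (GRCh38) bear on how reads could be assigned, since strand use and annotation are not given in the sources used here. ACTA2 (chr10:88935074-88991339, minus strand) is overlapped on the other strand by STAMBPL1, ACTA2-AS1 and FAS; ACTA2-AS1 itself was at most 0.412 FPKM. ACTG2 (chr2:73892314-73919865, plus), CNN1 (chr19:11538717-11550323, plus), TPM2 (chr9:35681992-35690121, minus) and S100A10 (chr1:151982915-151994390, minus) overlap no other gene. TAGLN (chr11:117199321-117204782, plus) overlaps PCSK7 over 446 bases, TPM1 (chr15:63042632-63071915, plus) overlaps 2 antisense genes, and MYL9 (chr20:36541484-36551447, plus) lies over its whole length of 9964 bases opposite DLGAP4-AS1. ANXA2 (chr15:60347134-60402883, minus) shares 35.3% of its 50-base windows with the pseudogene ANXA2P2 and fewer with ANXA2P1 and ANXA2P3. How reads that match both were assigned is not given in the sources used here, so the size of this uncertainty is unknown. The highest value of ANXA2P1 was 2.13 FPKM and that of ANXA2P2 0.175 FPKM. ACTG2 shares 0.0993% of its windows with POTE genes, and the others share none.

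The label check on the transgene and the depth concern all libraries. ZNHIT3 was between 531 and 542 FPKM in WT, 419 and 432 in C14R and 292 and 310.1 in the deletion at day 0. At day 18 the ranges were 1103 to 1193, 599.7 to 756 and 294 to 313 FPKM in the same order. These values join the transgene and the cells' own transcripts. The ZNHIT3 level thus differed with the construct, and comparisons of constructs cannot tell the sequence of the construct from its level. FPKM gives no read totals, but steps among low values put the day 0 libraries at 59.1% to 84.7% of the depth of the deepest library and the day 18 libraries at 81.8% to 100%. Libraries of one group correlated at r = 0.984 to 0.994 across genes.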

How the data were processed

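The data were 18 RNA-seq libraries of rRNA-depleted total RNA. The authors deposited 1 table of FPKM per gene symbol and library. TopHat2, STAR, Cufflinks 2.2.1 and the build hg38 are named, without role or order, per the submitters' processing notes; the annotation and the use of strand are not given in the sources used here. Each column matched 1 sample title, and 0 columns lacked a sample. Groups came from the titles.

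Tests used limma 3.58.1 in R 4.3.3 on log2(FPKM + 1), with 1 fit of 6 group means over all 18 libraries, limma's trended empirical Bayes variances and Benjamini-Hochberg adjustment over the 13785 genes with a mean FPKM of at least 1 (threshold 0.05). The fit was also run on simulated data with independent normal noise around each gene's mean. These data held no effects shared within a library, so that run gives no support to the calls made here. FPKM carry no counts, so no counting intervals could be given and absolute depth is unknown. The 9 genes, the 8 lists and the marker lists were chosen with earlier results of these data known. Named with statistics were genes past the threshold or among the 2 largest differences of a comparison; from each list, the 3 largest changes past the threshold between the days in WT and the close relatives of the 9 genes; and the 2 most alike genes by correlation. ANXA2, VIM, ACTN1 and MYH10 between constructs, MYL6, MYL12A and MYL12B, and the marker genes were named after their values were seen. So were ANXA2, TPM1 and TPM2 in the interaction of the deletion with day. One of the 8 lists, which stays in the total, and 1 gene that the rule selected from another list are not reported here. Tried as alternatives, one at a time, were another pseudocount (0.1), a filter at a mean of 5 FPKM or none at all, 3 other scalings (median-of-ratios, quantile, and small RNA genes left out with the rest rescaled), a block for the replicate number, array weights, a variance prior without trend, a fit of the compared libraries alone, and the removal of each library in turn.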

Additional observations from a re-analysis of the deposited data

How the results depend on the processing

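Of the 16 differences and interactions named by the rule above, ACTG2 in C14R against the deletion at day 0 was the only one past the threshold. It was lost in 5 of 28 alternative settings. The others were not past it in any setting, which says nothing about their stability. For C14R against the deletion at day 0, the number of the 9 genes called was 1, with 0 at a pseudocount of 0.1, 2 with array weights (ACTG2 and ANXA2), and 0 to 2 with a library left out: 0 without C14R replicate 1 or 3 or deletion replicate 1 or 3 of day 0, 2 without C14R replicate 1 of day 18. The other 5 comparisons of constructs and both interactions gave 0 calls under every setting. ACTA2 in C14R against the deletion at day 18 turned from 0.15 to -0.047 with array weights, and lay between -0.0042 and 0.32 with a library left out. The median difference between the days over the 9 genes went from -2.75 to -2.37 in WT, from -2.73 to -2.36 in C14R and from -3.07 to -2.70 in the deletion with small RNA genes left out, and to -2.94 in the deletion with quantile normalization. Of the list genes, 0 were called in C14R against WT at day 18, 2 with array weights and 0 to 1 with a library left out (1 without C14R replicate 2). The cause of these shifts was not tested.

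Replicate numbers are shared by the groups, and 6 of 45 same-numbered pairs of libraries deviated together with a correlation over 0.1 (median -0.0071, range -0.36 to 0.17). Pairs with different numbers were not compared, so this check cannot say whether the numbers pair the samples. With the replicate number as a block, ACTG2 stayed past the threshold in C14R against the deletion at day 0 (limma adjusted p = 0.016), and the block changed no call among the 9 genes.

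With 3 libraries a group an exact permutation test cannot go below 0.1. Genes with group means below 1 FPKM at day 18 (ACTG2, S100A10, CNN1) hold low values of unknown depth there.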
